A study of Rattus norvegicus with 18 samples.

Results

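The ADAM and ADAMTS metalloproteases were described in RNA-seq data from the lungs of 18 male F344 rats. Members were the genes of the deposited tables whose name is Adam, Adamts or Adamtsl followed by a number, which gave 48 of 22081 genes, namely 25 ADAM, 19 ADAMTS and 4 ADAMTS-like (ADAMTSL) genes. The MWCNT-treated rats received intratracheal instillations of MWNT-7, a multiwalled carbon nanotube, at 0.5 mg/kg every 4 weeks from 9 weeks of age, and the control rats received the saline vehicle with Tween 80 on the same schedule. Each treatment had 3 rats at Years 0.5, 1 and 2 after the first dose, so that both groups were older at each later time. RNA came from pieces of the accessory lobe without a grossly visible tumor, and each library is a mixture of all cells in that piece.

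ADAM proteins are membrane-anchored proteases that carry a disintegrin domain, and those with a working catalytic site cut other membrane proteins close to the cell surface, a step called ectodomain shedding that releases growth factors, cytokines and receptors. ADAMTS proteins are secreted, bind the extracellular matrix through thrombospondin repeats, and cut proteoglycans, procollagens and other matrix proteins. ADAMTSL proteins resemble ADAMTS proteins outside the catalytic part but have no protease domain. In the lung these families are known from airway remodeling, release of epidermal growth factor (EGF) receptor ligands and turnover of the matrix.

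Total counts ranged from 13297643 to 21130757 per rat. The summed TPM (a transcript level scaled for gene length and library total) of 11 lung epithelial markers was 49800 to 76300 per rat, as lung tissue should show. The summed marker RNA of several cell types differed between the treatments. The summed TPM of 10 macrophage markers was 857 to 1120 in the control rats and 4230 to 8230 in the MWCNT-treated rats, that of the 7 endothelial markers in the files was 2330 to 2960 and 815 to 1660, and that of 7 smooth muscle markers was 1050 to 1730 and 523 to 834. No marker of these 3 lists was at 0 in every rat of a group. The 9 heart muscle markers summed to 73.3 to 675 in the control rats and 15.8 to 204 in the MWCNT-treated rats, with Nppa, a heart atrial peptide, at 0 in every rat of 4 of the 6 groups. The part of these differences in the results was not tested, and fewer cells of a type cannot be told apart from less RNA per cell.

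In the lung, 32 members had enough counts to be tested in at least 2 of the 3 years. Of these, 30 were tested in every year, and Adamts13 and Adamts19 at Year 0.5 and Year 1. The other 16 members, 14 ADAM and 2 ADAMTS genes, passed the filter on low counts in no year. Among the 13 ADAM genes known from the male germ line or epididymis, 10 had at most 2 counts in every rat, and Adam5, Adam7, Adam34 and Adam34l had no count in any rat. A member could pass the filter through 1 group alone, so that counts among tested members describe those members and not all 48.

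The 4 highest mean levels belonged to ADAM sheddases of somatic tissues, and Adamts10 came next. Averaged over the 18 rats, Adam17 had 105 TPM, Adam15 95.4, Adam9 83.3, Adam10 74.2, Adam19 53.7 and Adam8 50.2, and these 6 genes made up 94.9% of the summed TPM of the ADAM genes. Among the ADAMTS genes, Adamts10 (63.3 TPM), Adamts1 (40.0), Adamts8 (36.2), Adamts15 (32.2) and Adamts2 (28.4) made up 82.9%. The members with the largest fold changes were, apart from Adamts2, genes of low level.

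**Figure D1:**
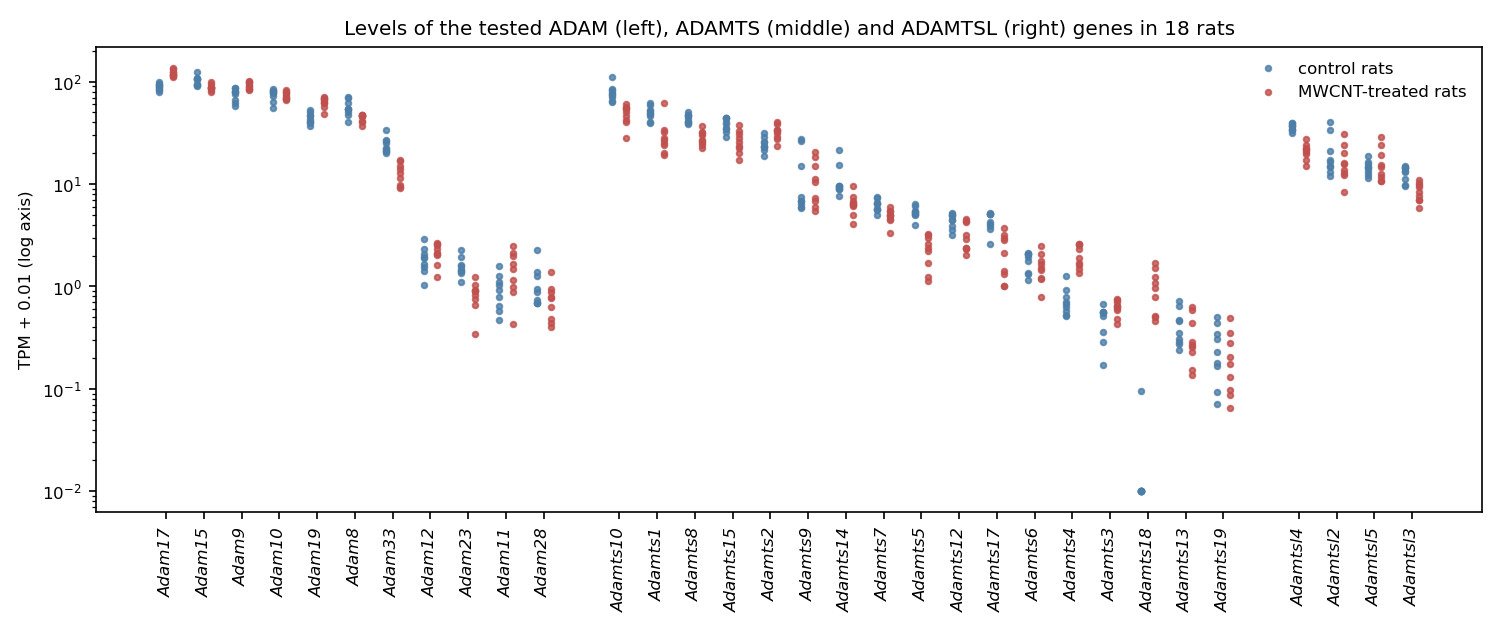
TPM plus 0.01 on a log axis for the 32 tested members in each of the 18 rats, ordered within each family by mean level, with the 9 control rats in blue and the 9 MWCNT-treated rats in red. Adam17 and Adam19 lie higher in the red points and Adamts5 and Adamts17 lower, while 8 of the 9 control rats sit at the floor of the axis for Adamts18, at 0 TPM.

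Differential expression was tested with the quasi-likelihood method of edgeR at each year, over all genes that passed the filter, and DEGs were called where the false discovery rate (FDR) was under 0.05 and the log2 fold change lay past 1 or -1. At Year 0.5, 2 of 32 tested members were called higher in the MWCNT-treated rats (Adamts4 and Adamts18), beside 6.07% of all genes tested, and 0 were called lower, beside 3.03%. With edgeR, 0 members fell past that fold at an unadjusted p below 0.05, and DESeq2 also called 0. At Year 1, Adamts18 was called higher, 1 of 32 beside 6.13%, and Adamts5 and Adamts19 lower, 2 of 32 beside 4.09%. At Year 2, 5 of 30 were called higher (Adam11, Adam12, Adamts2, Adamts4 and Adamts18), beside 8.17%, and 2 lower (Adamts5 and Adamts17), beside 8.22%. Adamts18 at every year, and Adamts19 at Year 1, passed the filter only through the group where they were higher. With at least 10 counts in every rat, 1 member was called higher at Year 0.5 and 0 at Year 1, and 1 lower at Year 1.

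By the FDR alone, with no limit on the fold, 14 of 32 tested members differed at Year 0.5 (6 higher and 8 lower, beside 38.8% of all genes in either direction), 16 of 32 at Year 1 (6 higher and 10 lower, beside 41.2%) and 22 of 30 at Year 2 (11 higher and 11 lower, beside 49.2%). At Year 2, 6 of the 11 tested ADAM genes were higher and 1 was lower, whereas 4 of the 15 tested ADAMTS genes were higher and 8 were lower, and 1 ADAMTSL gene was higher and 2 were lower of 4, beside 25.2% higher and 24.0% lower of all genes. The difference between the families was not tested. With library size scaling, 5 ADAM genes were higher and 3 lower, the ADAMTS counts were again 4 and 8, and the shares of all genes became 17.0% and 36.6%. The TPM of the 3 MWCNT-treated rats did not overlap that of the 3 control rats in 19 of 32, 20 of 32 and 24 of 30 tested members at Years 0.5, 1 and 2, beside 57.7%, 61.7% and 63.8% of all genes tested.

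The median log2 fold change of the tested ADAM genes was 0.14, -0.00 and 0.32 at Years 0.5, 1 and 2, and that of the tested ADAMTS genes was 0.02, -0.34 and -0.35, beside -0.02, 0.00 and -0.01 over all genes tested. These values depend on the scaling. With library size alone in place of TMM factors the median of all genes shifted by -0.10, -0.13 and -0.17, and the ADAM median at Year 1 became -0.14 and the ADAMTS median at Year 0.5 became -0.085. Of the medians named, those of ADAM at Year 2 and of ADAMTS at Years 1 and 2 kept their sign under every scaling tried.

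**Figure D2:**
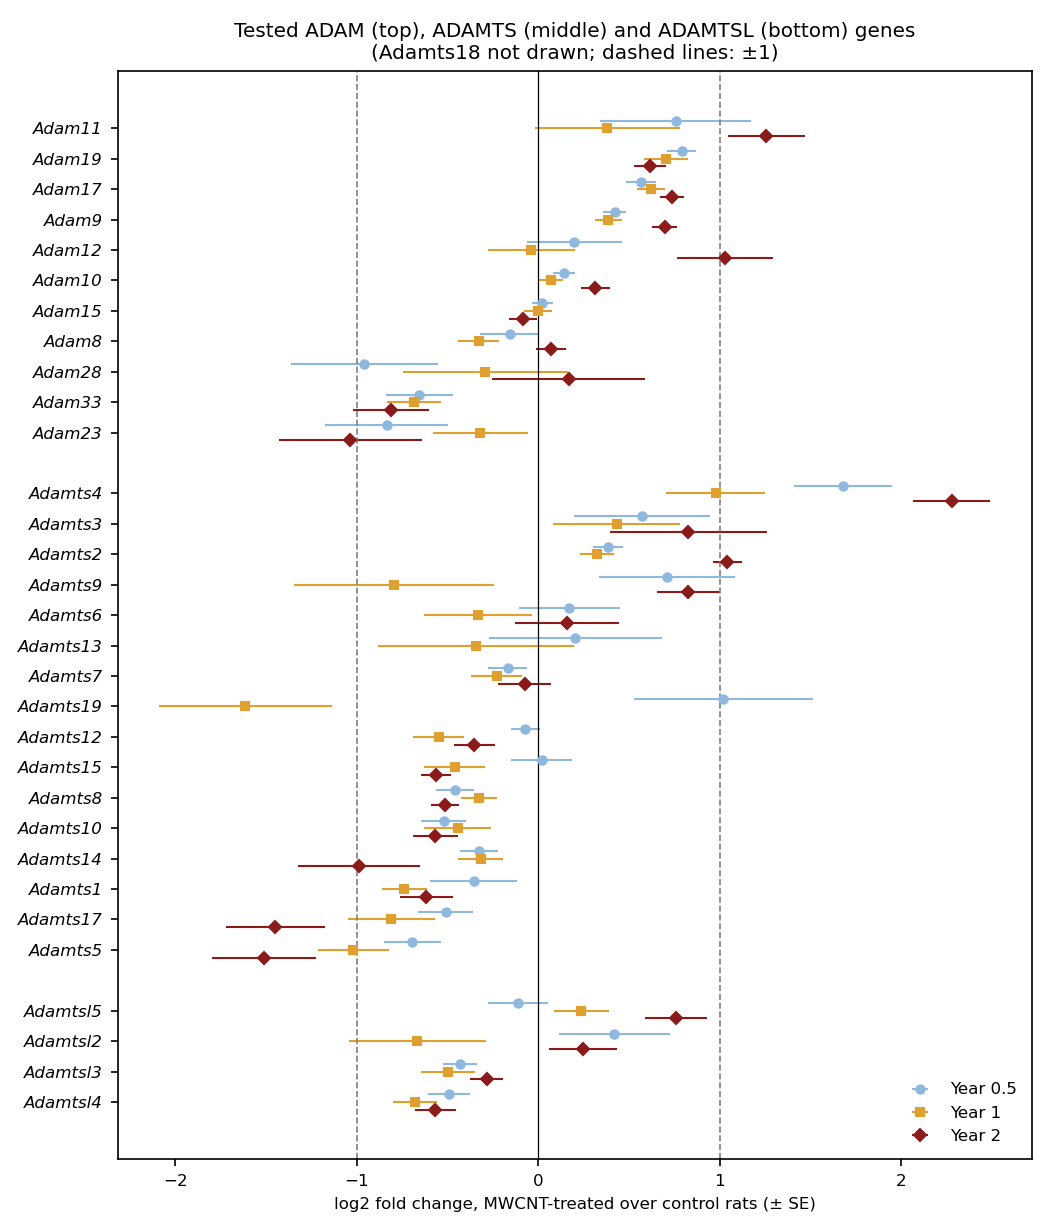
Log2 fold change of MWCNT-treated over control rats, with its standard error, for 31 of the 32 tested members at Years 0.5 (circles), 1 (squares) and 2 (diamonds), by family, with dashed lines at the call limits of -1 and 1. Adam17, Adam19 and Adam9 lie right of 0 at every year and Adam33, Adamts5, Adamts17 and Adamts8 left of it, and Adamts18 is not drawn because its control rats had 0 to 2 counts.

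Adam17, also known as TACE, sheds tumor necrosis factor and several EGF receptor ligands and was the member with the highest mean level. Control rats had 94.9, 99.5 and 92.3 at Year 0.5, 92.7, 84.7 and 89.5 at Year 1, and 79.5, 88.9 and 82 TPM at Year 2. Treated rats had 133, 135 and 115 at Year 0.5, 125, 109.9 and 114 at Year 1, and 119.7, 116 and 124 TPM at Year 2. Every treated rat lay above every control rat of its year. By edgeR the log2 fold change was 0.57 ± 0.08 (FDR 0.000797) at Year 0.5, 0.62 ± 0.08 (FDR 0.000369) at Year 1 and 0.74 ± 0.07 (FDR 3.06e-05) at Year 2, below the call limit for size.

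Adam9, another sheddase, had 79, 79.9 and 81.2 at Year 0.5, 76.5, 86.5 and 85.9 at Year 1, and 57.5, 61.5 and 66.2 TPM at Year 2 in the control rats. The MWCNT-treated rats had 98.4, 101 and 91.5 at Year 0.5, 95, 82.9 and 98.8 at Year 1, and 88.9, 83.9 and 85.6 TPM at Year 2. The groups did not overlap at Year 0.5 and Year 2 and overlapped at Year 1. Fitted log2 fold changes were 0.42 ± 0.06 (FDR 0.00108), 0.39 ± 0.07 (FDR 0.00317) and 0.70 ± 0.07 (FDR 4.44e-05), and at Year 1 it became 0.15 and lost its call by FDR with limma on log2 TPM. Adam19, which is known from heart development and neuregulin shedding, rose by a log2 fold change of 0.79 ± 0.08 (FDR 0.00013), 0.71 ± 0.12 (FDR 0.00192) and 0.62 ± 0.09 (FDR 0.000393).

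Adam10, the main sheddase of Notch receptors, passed the FDR at 1 year. Its TPM was 84, 80.6 and 77.6 at Year 0.5, 78.3, 81 and 80.9 at Year 1, and 55.6, 63.9 and 72.5 at Year 2 in the control rats. The treated rats measured 82.5, 79.8 and 79.8 at Year 0.5, 76, 65.8 and 72.7 at Year 1, and 67.2, 69.3 and 68.8 at Year 2. The fitted log2 fold change was 0.32 ± 0.08 (FDR 0.0107) at Year 2, and that call was lost with library size scaling, at a log2 fold change of 0.14, and with limma on log2 TPM. Adam15, a member with an integrin-binding disintegrin domain, had 90.7, 95.1 and 92.8 at Year 0.5, 93, 107 and 107 at Year 1, and 108, 125 and 107 TPM at Year 2 in the control rats. It had 83.1, 86.1 and 87 at Year 0.5, 87.4, 78.7 and 94.1 at Year 1, and 87.9, 89.4 and 98.4 TPM at Year 2 in the MWCNT-treated rats. Its log2 fold change was 0.02 ± 0.06 (FDR 0.768), -0.00 ± 0.08 (FDR 0.99) and -0.08 ± 0.08 (FDR 0.4) and passed no threshold. In TPM, the treated rats lay below all controls of their year for Adam10 at Year 1 and for Adam15 at Years 0.5 and 2. The same held for Adam8 at Year 2. In these cases the fit, which uses TMM factors, gave log2 fold changes of -0.08 to 0.07.

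Adam33, a gene known from asthma genetics and from airway smooth muscle and fibroblasts, fell at every year, with log2 fold changes of -0.66 ± 0.19 (FDR 0.0215), -0.69 ± 0.15 (FDR 0.00635) and -0.81 ± 0.21 (FDR 0.0107). It was the ADAM gene that was lower at all 3 years by FDR, and the summed smooth muscle markers were lower in the same rats. The summed TPM of 7 fibroblast markers was 983 to 1780 in the control rats and 929 to 1430 in the treated rats. By year, these sums overlapped at Years 0.5 and 2 and not at Year 1. Neither relation was tested. The Year 0.5 value of Adam33 lost its call without control rat 1 (-0.69) or 2 (-0.54) and without treated rat 1 (-0.58) or 2 (-0.50). Adam8, known from leukocytes, was lower at Year 1 (-0.33 ± 0.11 (FDR 0.0459)), a call lost without control rat 2 or 3 or treated rat 1 or 2 (-0.31 to -0.23) and in one model of all 18 rats, and its log2 fold changes at Years 0.5 and 2 were -0.16 and 0.07. Adam28, known from lymphocytes and epididymis, passed no threshold at any year.

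Adam12 (ENSRNOG00000018384, chr1:205956342-206282575 of the rn6 build), known from muscle regeneration, placenta and fibrotic tissue, was called only at Year 2. At that year its TPM was 1.63, 1.42 and 1.03 in the control rats against 2.11, 2.56 and 2.56 in treated rats, which did not overlap. At Year 0.5 the TPM was 2.29, 1.54 and 2.89 against 2.01, 2.31 and 2.67, and at Year 1 it was 2.07, 1.88 and 1.92 against 2.06, 1.22 and 1.61, and the groups overlapped. The log2 fold change at Year 2 was 1.03 ± 0.26 (FDR 0.0102), just past the limit. It fell under the limit with library size scaling (0.86) and with limma on log2(TPM + 1) (0.54) and log2(TPM + 0.1) (0.80). It also did so without control rat 3 (0.86) and, by less, without treated rat 2 or 3 (both 1.00 when rounded). By the interaction test in edgeR, the Adam12 effect at Year 2 did not differ from that at Year 0.5 (FDR 0.281) or Year 1 (FDR 0.14). In that model, its log2 change from Year 0.5 to Year 2 was 0.13 (FDR 0.767) in treated rats and -0.70 (FDR 0.0978) in control rats. From Year 1 to Year 2 the change was 0.59 (FDR 0.174) in treated rats and -0.49 (FDR 0.233) in control rats. The share of the control rats in the Year 2 call was not tested.

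Adam11, Adam22 and Adam23 have no working protease site and are known from the nervous system as partners of LGI proteins. Adam11 (ENSRNOG00000002753, chr10:90731148-90749217) had 0.913, 1.02 and 1.25 TPM in control rats against 2.13, 1.95 and 2.47 TPM in treated rats at Year 2. The groups did not overlap at that year, with a log2 fold change of 1.26 ± 0.21 (FDR 0.00111) that was 0.63 and 0.98, under the limit, with limma on log2(TPM + 1) and log2(TPM + 0.1). They overlapped at Year 0.5 (0.642, 0.57 and 0.776 against 0.421, 1.15 and 1.46) and at Year 1 (0.457, 1.57 and 1.09 against 1.63, 0.869 and 0.98). By the interaction test in edgeR, the Adam11 effect at Year 2 did not differ from that at Year 0.5 (FDR 0.75) or Year 1 (FDR 0.438). Adam23 had 1.59, 1.1 and 2.26 at Year 0.5, 1.41, 1.4 and 1.61 at Year 1, and 1.46, 1.34 and 1.93 TPM at Year 2 in the control rats. It had 0.653, 1.01 and 0.813 at Year 0.5, 0.885, 0.909 and 1.22 at Year 1, and 0.748, 0.887 and 0.334 TPM at Year 2 in the MWCNT-treated rats, each below every control rat of its year. Its log2 fold change of -1.04 ± 0.39 (FDR 0.0541) at Year 2 missed the FDR threshold. Adam4, the germ line ADAM with the highest level, had 1 to 16 counts per rat and was not tested by year.

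Among the ADAMTS genes that cut proteoglycans such as aggrecan and versican, Adamts4 rose at every year and Adamts9 at Year 2 by FDR, while 4 of the other tested members fell in at least 1 year. Adamts4 (ENSRNOG00000003538, chr13:89622632-89634419) had 0.512, 0.614 and 0.911 at Year 0.5, 0.692, 0.666 and 1.26 at Year 1, and 0.506, 0.566 and 0.779 TPM at Year 2 in the control rats. The MWCNT-treated rats had 1.87, 2.33 and 1.68 at Year 0.5, 1.35, 1.47 and 1.61 at Year 1, and 2.58, 2.6 and 2.55 TPM at Year 2. Each of them lay above every control rat of its year. Its log2 fold change was 1.68 ± 0.27 (FDR 0.00136), 0.98 ± 0.27 (FDR 0.0195) and 2.28 ± 0.21 (FDR 3.27e-05). At Year 1 it lay just under the call limit, and over the 6 rats left out in turn it was 0.81 to 1.35, and it missed the FDR threshold without control rat 1 or 2 and without treated rat 2 or 3. With limma on log2(TPM + 1) the Year 0.5 value was 0.82, under the call limit, and the Year 1 value (0.42) missed the FDR threshold.

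Adamts5 (ENSRNOG00000057794, chr11:25410975-25456836), the other major aggrecanase, moved in the opposite direction. Its TPM was 6.31, 5.03 and 5.27 at Year 0.5, 5.49, 5.11 and 5.29 at Year 1, and 5.12, 4.01 and 6.08 at Year 2 in the control rats. The treated rats measured 3.15, 2.95 and 3.21 at Year 0.5, 1.68, 2.37 and 2.58 at Year 1, and 1.23, 2.2 and 1.13 at Year 2. No treated rat reached the lowest control rat of its year. Its log2 fold change was -0.69 ± 0.16 (FDR 0.00829), -1.02 ± 0.19 (FDR 0.0033) and -1.51 ± 0.29 (FDR 0.0021), and the Year 1 value lost its call when either of 2 rats was left out, at -0.98 without control rat 1 and -0.85 without MWCNT-treated rat 1, and with limma on log2(TPM + 1), at -0.98. By the interaction test in edgeR, the effect at Year 2 did not differ from that at Year 0.5 (FDR 0.249) or Year 1 (FDR 0.477).

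Adamts1, which lies 60.0 kb from Adamts5 on chromosome 11 and also cuts versican, had the highest mean level of the proteoglycan-cleaving genes. The control rats had 59.2, 62.3 and 52.4 at Year 0.5, 51.6, 49.9 and 39.6 at Year 1, and 39.9, 46.2 and 47.9 TPM at Year 2. The MWCNT-treated rats had 61.5, 28.4 and 33.6 at Year 0.5, 27.1, 20 and 25.1 at Year 1, and 19.1, 31.9 and 24.2 TPM at Year 2. The groups overlapped at Year 0.5, where treated rat 1 stood as high as the control rats, and did not overlap afterwards. Fitted log2 fold changes were -0.36 ± 0.24 (FDR 0.275), -0.74 ± 0.12 (FDR 0.00173) and -0.62 ± 0.15 (FDR 0.00745). Adamts8 and Adamts15, 18.2 kb apart on chromosome 8, had log2 fold changes of -0.51 ± 0.08 (FDR 0.00061) and -0.56 ± 0.08 (FDR 0.000517) at Year 2. Adamts8 also fell at Year 0.5 (-0.46 ± 0.10 (FDR 0.00779)) and Year 1 (-0.32 ± 0.10 (FDR 0.0279)), the latter lost without control rat 1 or treated rat 2 or 3 (-0.34 to -0.24), and Adamts15 passed the FDR at Year 2 alone. Adamts9 rose by the FDR at Year 2 (0.83 ± 0.17 (FDR 0.00377)), a call that one model of all 18 rats did not keep.

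Adamts18 (ENSRNOG00000011575, chr19:46005277-46101250), an orphan ADAMTS gene known from lung, kidney and eye development, was called at all 3 years. The control rats had 0 counts in each rat at Year 0.5 and Year 1, and 2, 0 and 0 counts at Year 2. The MWCNT-treated rats had 24, 58 and 13 counts at Year 0.5, 28, 37 and 13 at Year 1, and 38, 22 and 12 at Year 2. The gene passed the filter on low counts through the treated rats alone. In TPM the treated rats had 0.95, 1.67 and 0.506 at Year 0.5, 1.07, 1.22 and 0.496 at Year 1, and 1.52, 0.771 and 0.455 at Year 2. It was at least 9.16-fold higher at Year 0.5 and at least 8.93-fold higher at Year 1, against a floor of 3 counts per control rat. At Year 2 the ratio was 35.9, with a 95% counting interval of 9.59 to 302. That interval uses the summed counts of each group and leaves out the spread between rats. The ratio rests on 2 counts in control rat 1 and cannot be set beside the bounds of the other years. Without that rat the fitted log2 fold change at Year 2 moved from 4.95 to 7.62, a value that depends on the prior count. The FDR by edgeR was 0.00197, 0.00131 and 0.00179. The level remained low, and with limma on log2(TPM + 1) the difference was 0.86 to 0.99, under the call limit.

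**Figure D3:**
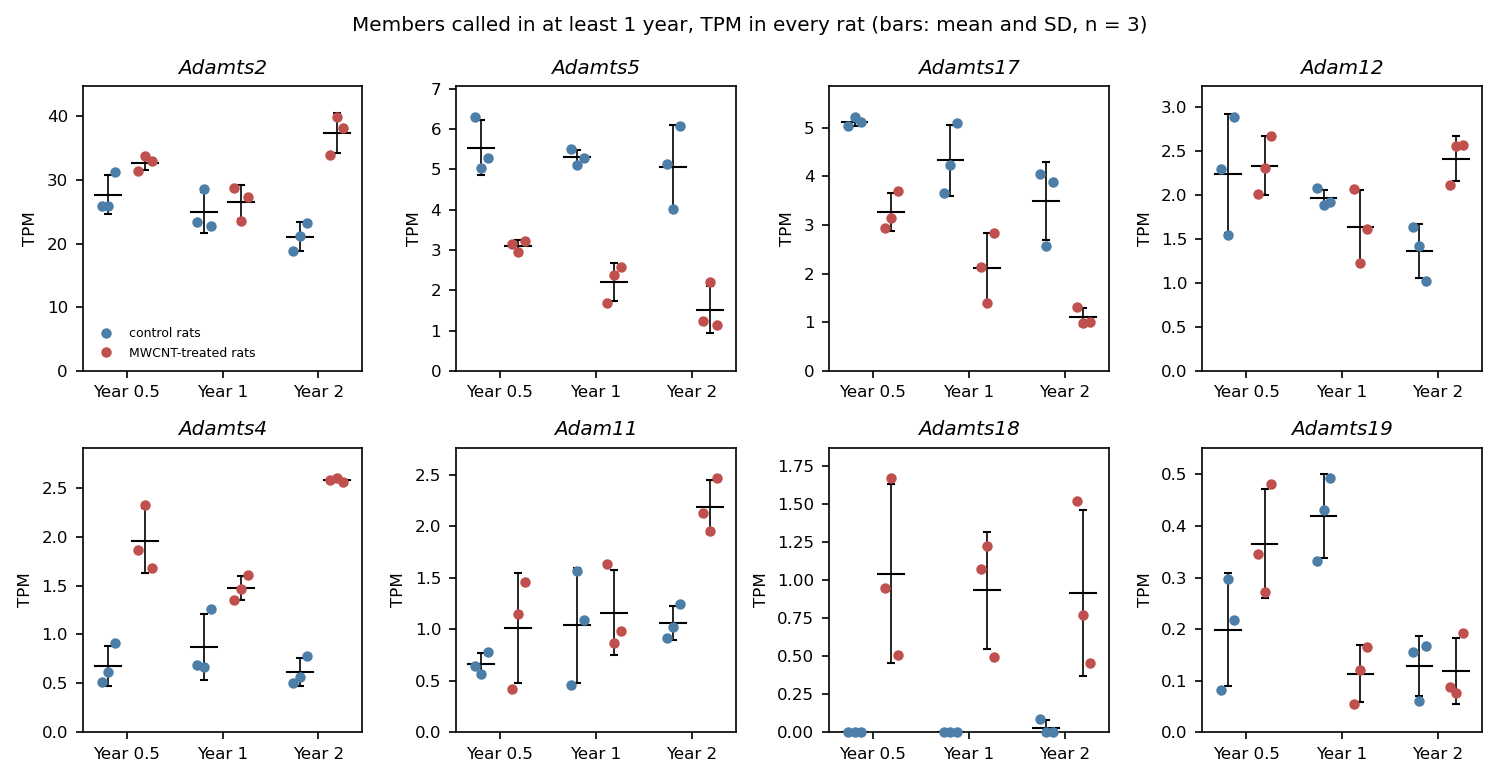
TPM in each rat for the 8 members called in at least 1 year, in order of mean level, with the control rats in blue, the MWCNT-treated rats in red, and the mean and SD of 3 rats in black. Adamts4 and Adamts18 lie higher in the treated rats at every year, Adamts5 and Adamts17 lower at every year, and Adamts2, Adam11 and Adam12 separate most at Year 2. By the interaction test, the treatment effect differed between years for Adamts2 alone.

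Adamts2, Adamts3 and Adamts14 remove the amino-terminal propeptide of fibrillar procollagens. Adamts2 (ENSRNOG00000061484, chr10:36098051-36304409) had 25.9, 25.9 and 31.3 at Year 0.5, 23.5, 28.6 and 22.8 at Year 1, and 18.8, 21.3 and 23.2 TPM at Year 2 in the control rats. It had 31.4, 33.8 and 32.9 at Year 0.5, 28.8, 23.6 and 27.3 at Year 1, and 34, 40 and 38.2 TPM at Year 2 in the MWCNT-treated rats. The groups did not overlap at Year 0.5 and Year 2, and they overlapped at Year 1. By edgeR the log2 fold change was 0.39 ± 0.08 (FDR 0.00615), 0.32 ± 0.10 (FDR 0.0242) and 1.04 ± 0.08 (FDR 9.6e-06). The Year 2 value was under the call limit with library size scaling (0.87), with limma on log2(TPM + 1) (0.80) and log2(TPM + 0.1) (0.82) and without control rat 1 (0.99). With limma the Year 0.5 value (0.24 and 0.25) and the Year 1 value (both 0.09) missed the FDR threshold, the latter with library size scaling too (0.19). The Year 1 value also missed it without control rat 1 or 3 or treated rat 1 or 3 (0.26 to 0.32).

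Adamts2 was also the member whose treatment effect differed between years in the model of all 18 rats. The effect at Year 2 exceeded that at Year 0.5 by a log2 difference of 0.66 ± 0.13 (FDR 0.0209), beside 1.31% of all genes at an FDR below 0.05, and that at Year 1 by 0.73 ± 0.13 (FDR 0.0277), beside 0.478%. Within the control rats Adamts2 fell from Year 0.5 to Year 2 by 0.39 on the log2 scale (FDR 0.0222). Within the treated rats its log2 change over that time was 0.28 (FDR 0.0529) and missed the FDR threshold. Between Year 1 and Year 0.5 edgeR found 0 members with a different effect (0% of all genes), and 3 at an unadjusted p below 0.05, and DESeq2 found 0. Adamts14 was lower at Year 0.5 (-0.33 ± 0.11 (FDR 0.0396)) and Year 2 (-0.99 ± 0.34 (FDR 0.0365)), both lost by DESeq2. The Year 0.5 call was also lost without any rat other than control rat 1 (-0.35 to -0.25), and the Year 2 call without control or treated rat 1 or 2 (-0.97 to -0.68). Adamts3 passed no threshold.

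Adamts17 (ENSRNOG00000037080, chr1:127802978-128124171), known with Adamts10 from short stature and lens disorders of the Weill-Marchesani type, fell at every year by FDR. Its TPM was 5.04, 5.23 and 5.11 at Year 0.5, 3.65, 4.23 and 5.1 at Year 1, and 4.04, 2.57 and 3.87 at Year 2 in the control rats. The treated rats measured 2.94, 3.14 and 3.7 at Year 0.5, 2.13, 1.4 and 2.84 at Year 1, and 1.32, 0.99 and 0.999 at Year 2. No treated rat reached a control rat of its year. It had log2 fold changes of -0.51 ± 0.15 (FDR 0.0273), -0.81 ± 0.24 (FDR 0.0253) and -1.45 ± 0.27 (FDR 0.00204). The Year 0.5 value missed the FDR threshold without control or treated rat 1 or 2 (-0.52 to -0.44) and in one model of all 18 rats, and the Year 1 value without control rat 2 or 3 or treated rat 1 or 2 (-0.84 to -0.61). The difference between years in this effect did not pass the interaction test.

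Adamts10, which binds fibrillin, was the ADAMTS gene with the highest mean level. The control rats had 75.4, 79.4 and 63.7 at Year 0.5, 71.4, 64.1 and 74.2 at Year 1, and 83.9, 112 and 83.5 TPM at Year 2. The MWCNT-treated rats had 40.4, 42.4 and 55.2 at Year 0.5, 53.5, 28.1 and 50.6 at Year 1, and 45.9, 56.5 and 59.8 TPM at Year 2, with rat 2 of Year 1 the lowest of all. The groups did not overlap at any year, and the log2 fold change was -0.52 ± 0.12 (FDR 0.0101), -0.44 ± 0.18 (FDR 0.0809) and -0.57 ± 0.12 (FDR 0.00436). Adamts19 (ENSRNOG00000019577, chr18:53915807-54099120), known from heart valves and ovary, was called lower at Year 1, where the control rats had 10, 14 and 19 counts and the treated rats 2, 5 and 6. Its log2 fold change of -1.61 ± 0.48 (FDR 0.0242) lost the call by DESeq2, with limma on log2(TPM + 1) (-0.35), without control rat 2 (-1.61) or 3 (-1.48), and without treated rat 1 (-1.30) or 2 (-1.70), and at Year 0.5 the value was 1.02 ± 0.49 (FDR 0.134). Counts at Year 0.5 were 3, 9 and 7 in control rats and 12, 13 and 17 in treated rats. Those at Year 2 were 5, 2 and 5 against 3, 3 and 7. Without the filter, the Year 2 log2 fold change by edgeR was 0.10 (FDR 0.929). The mean control TPM was 0.199, 0.419 and 0.128 at Years 0.5, 1 and 2.

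Adamts7 and Adamts12 cut cartilage oligomeric matrix protein. Adamts7 had 6.55, 6.41 and 7.38 at Year 0.5, 6.54, 5.53 and 5.65 at Year 1, and 5.02, 7.28 and 5.75 TPM at Year 2 in the control rats and was not called. Treated rats had 5.94, 5.49 and 4.93 at Year 0.5, 5.02, 3.35 and 4.54 at Year 1, and 5.44, 4.83 and 4.45 at Year 2, and its log2 fold change was -0.23 to -0.07. Adamts12 was lower by FDR at Year 1 (-0.55 ± 0.14 (FDR 0.0132)) and Year 2 (-0.35 ± 0.12 (FDR 0.031)), the former lost without control rat 3 (-0.50), the latter lost by DESeq2, with the replicate block and without any rat other than control rat 1 (-0.36 to -0.29). Adamts13, which cuts von Willebrand factor, had 0.3, 0.719 and 0.276 at Year 0.5, 0.262, 0.456 and 0.64 at Year 1, and 0.339, 0.452 and 0.232 TPM at Year 2 in the control rats. The treated rats had 0.625, 0.433 and 0.279 at Year 0.5, 0.577, 0.142 and 0.219 at Year 1, and 0.258, 0.126 and 0.245 at Year 2, and it passed no threshold.

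Of the ADAMTSL genes, Adamtsl4, which binds fibrillin, had the highest mean level. Its TPM was 34.6, 33.8 and 36.5 at Year 0.5, 33.6, 39.4 and 37.2 at Year 1, and 31.6, 39.8 and 37.7 at Year 2 in the control rats. The treated rats measured 20.6, 19.5 and 27.6 at Year 0.5, 22.4, 15 and 21.4 at Year 1, and 17.2, 21.9 and 24.2 at Year 2, and no treated rat reached a control rat of its year. The log2 fold change was -0.49 ± 0.12 (FDR 0.00956), -0.68 ± 0.12 (FDR 0.00224) and -0.57 ± 0.11 (FDR 0.0029). Adamtsl3 was lower by FDR at every year, with log2 fold changes of -0.43 ± 0.09 (FDR 0.0059), -0.50 ± 0.15 (FDR 0.0268) and -0.28 ± 0.09 (FDR 0.0282). The Year 1 call was lost without control rat 1 or 3 (-0.51 to -0.44), and the Year 2 call without control rat 1 or 3 or treated rat 1 or 2 (-0.28 to -0.22), by DESeq2 and in one model of all 18 rats. Adamtsl5 rose at Year 2 (0.76 ± 0.17 (FDR 0.005)). Adamtsl2 varied between rats of a group, from 15.1 to 39.9 TPM in the control rats of Year 1 and from 8.31 to 24.0 TPM in the treated rats of that year, and passed no threshold.

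Summed over each family, the ADAMTS level was lower in every treated rat than in every control rat of its year. The ADAM genes together had 476 ± 6.73, 487 ± 20.1 and 456 ± 29.6 TPM in the controls at Years 0.5, 1 and 2 (SD, n = 3), against 522 ± 11.7, 483 ± 41.2 and 497 ± 14.9 TPM in the MWCNT-treated rats. The ADAMTS genes together had 286 ± 4.26, 279 ± 11.3 and 280.1 ± 24.4 TPM in the controls, against 227 ± 16.1, 182 ± 37.9 and 195 ± 13.4 TPM in the treated rats. Treated rat 2 of Year 1 had the lowest ADAMTS sum, 138 TPM, against 199.5 and 207 in the other rats of its group. ADAM genes made up 61.4% to 63.9% of the ADAM and ADAMTS sum in the 9 control rats and 68.0% to 76.0% in the 9 treated rats, which did not overlap. These sums are on the TPM scale, without TMM factors, and no test was made on them.

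**Figure D4:**
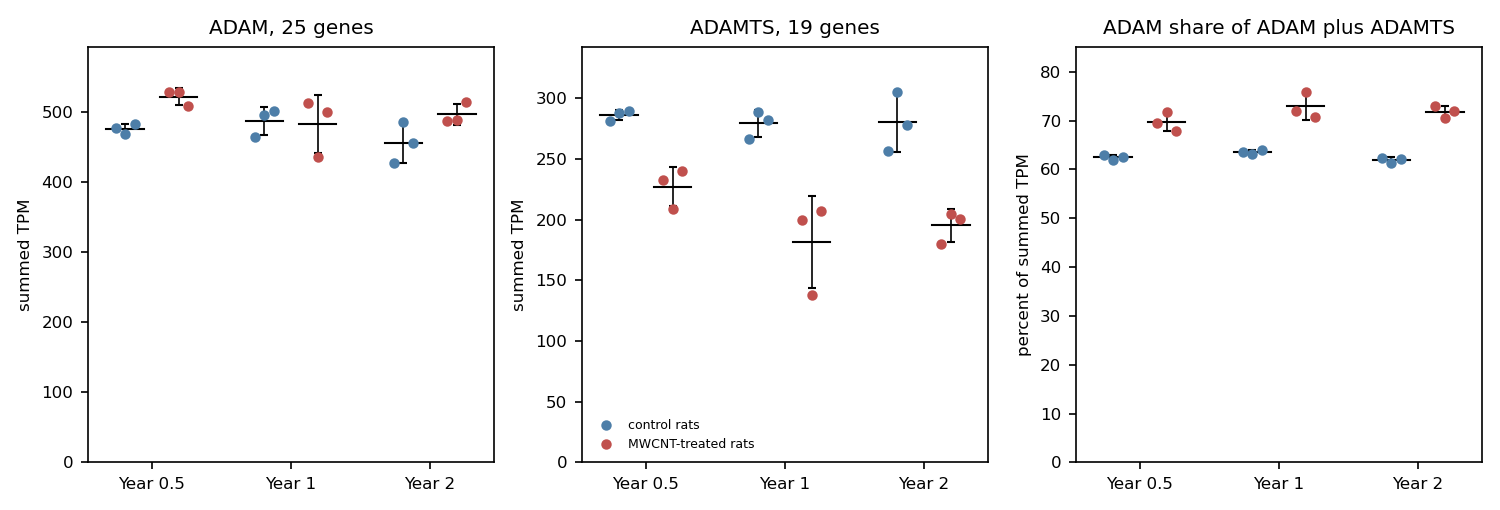
Summed TPM of the 25 ADAM genes and of the 19 ADAMTS genes, and the ADAM share of both in percent, in each rat by year, with control rats in blue, MWCNT-treated rats in red, and the mean and SD of 3 rats in black. The ADAMTS sum of every treated rat lies below every control rat of its year, and the ADAM share lies between 68.0% and 76.0% in the treated rats, above all control rats.

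Members were also compared over time within each treatment, in the model of all 18 rats. In that model Adam4 and Adam22 passed the filter on low counts too, which gave 34 tested members. Within the MWCNT-treated rats, 3 of 34 members were called between Year 2 and Year 0.5, beside 2.34% of all genes, namely Adamts17 (-1.48 ± 0.24 (FDR 0.000661)), Adamtsl5 (1.20 ± 0.15 (FDR 0.000113)) and Adam11 (1.18 ± 0.38 (FDR 0.0466)). The Adam11 call was lost in 13 of 18 fits with 1 rat left out and with library size scaling. By FDR alone 5 of 34 differed, beside 13.5%, with Adamts12 and Adamts5 lower as well, the latter lost without treated rat 1 (-0.82) or 3 (-0.75) of Year 2. Within the control rats, 6 of 34 members differed by FDR alone between Year 2 and Year 0.5, beside 6.65%, with Adam10, Adam9, Adamts12, Adamts2 and Adamtsl3 lower by 0.33 to 0.53 on the log2 scale and Adam15 higher by 0.29. None of these passed the limit on the fold, and the calls of Adam15, Adamts2 and Adamtsl3 were lost in 4, 3 and 5 of 18 fits with 1 rat left out, all of them fits without control rat 1 or 2 of Year 2 or without a control rat of Year 0.5. From Year 0.5 to Year 1, edgeR found 0 members in the control rats by FDR (0% of all genes), and 2 at an unadjusted p below 0.05, and DESeq2 found 0. Against Year 1, treated rats at Year 2 had Adamts2 (0.52), Adamts4 (0.82) and Adamtsl5 (0.77) higher and Adamts17 (-0.91) lower by FDR. Against Year 0.5, treated rats at Year 1 had Adamts12 (-0.64) lower. Against Year 1, control rats at Year 2 had Adam9 (-0.40), Adam10 (-0.30) and Adamts12 (-0.37) lower. None passed the limit on the fold, and only Adamts2, Adamtsl5 and Adam9 kept the FDR with each rat left out. The shares of all genes in these comparisons are not given here, so the number of members in each is not read as a trait of the family.

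Of 22 partners and inhibitors of the ADAM proteases, 21 were tested, and 5, 4 and 6 were higher and 4, 6 and 7 lower by FDR at Years 0.5, 1 and 2. Of all genes tested, 20.2%, 21.6% and 25.2% were higher by FDR and 18.6%, 19.6% and 24.0% lower. With the limit on the fold, 0, 1 and 1 were called higher, beside 6.07%, 6.13% and 8.17% of all genes, and 0, 1 and 0 lower, beside 3.03%, 4.09% and 8.22%. Of the tissue inhibitors of metalloproteases, Timp1 had 83.5 ± 6.5, 78.8 ± 3.35 and 64.4 ± 3.74 TPM in the control rats and 121 ± 13.8, 139.7 ± 11.4 and 142 ± 8.92 TPM in the treated rats (SD, n = 3). It was called at Year 1 with a log2 fold change of 1.07 (FDR 0.000109) and at Year 2 with 1.36 (FDR 7.52e-06). Timp3, the inhibitor best known for ADAM17 and the aggrecanases, was lower by FDR at Year 1, -0.40 (FDR 0.0317), and Year 2, -0.29 (FDR 0.0219). Timp2 passed no threshold, and Timp4, at 1.17 to 3.98 TPM per group mean, was called lower at Year 1, -1.49 (FDR 0.00885). Of 3 genes chosen after their values were seen, Rhbdf2, which escorts ADAM17 to the cell surface, rose by 0.88 (FDR 9.26e-05), 0.81 (FDR 4.8e-05) and 0.88 (FDR 7.75e-06), while Rhbdf1, the other such escort, was lower by FDR at Year 2, -0.30 (FDR 0.0162). Reck, a membrane inhibitor of ADAM10, fell by 0.89 (FDR 0.000164), 0.97 (FDR 0.00016) and 0.97 (FDR 9.91e-06) on the log2 scale.

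Of 49 ADAM substrates, 46, 47 and 46 were tested, and 6, 8 and 13 were called higher and 3, 4 and 7 lower, where 6.07%, 6.13% and 8.17% of all genes were called higher and 3.03%, 4.09% and 8.22% lower, with a median log2 fold change of 0.22, 0.12 and 0.34. The EGF receptor ligands Areg and Ereg, both shed by ADAM17, rose at Year 2 by 3.33 (FDR 0.000234) and 2.92 (FDR 0.000198). Among other ligands of that receptor, named after their values were seen, Tgfa was higher by FDR at Year 2, 0.58 (FDR 0.00248), Egf was called lower at Year 0.5, -1.17 (FDR 0.00773), and Year 2, -1.41 (FDR 0.0139), and Hbegf was lower by FDR at Year 2, -0.47 (FDR 0.0435). Trem2, Msr1 and Mertk, receptors of macrophages, rose at Year 2 by 2.81 (FDR 1.49e-07), 2.45 (FDR 1.7e-06) and 1.62 (FDR 4.7e-06). Cd163, another macrophage receptor of the list, also named after its values were seen, was called lower at Year 1, -1.15 (FDR 0.00681), and was higher by FDR at Year 2, 0.44 (FDR 0.0234). Fcer2, the low-affinity IgE receptor, rose by 2.24 (FDR 0.00019), and Il1r2, the decoy receptor of interleukin 1, by 1.88 (FDR 0.000424). Dlk1, a Notch pathway ligand, fell from 60.4 ± 15.9 to 1.56 ± 0.901 TPM at Year 0.5, a log2 fold change of -5.15 (FDR 9.96e-06), and Igfbp3, a binding protein of insulin-like growth factors, fell at Year 1 with -1.55 (FDR 4.15e-06). The summed macrophage markers were higher in the same rats, as given above. By FDR, 9 of the 10 were higher and 1 was lower at each year. Of all genes, 20.2% to 25.2% were higher and 18.6% to 24.0% lower.

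Of 36 ADAMTS substrates and partners, 34 were in the files and 29, 28 and 28 were tested, of which 3, 5 and 7 were called higher and 1, 3 and 5 lower, beside those same shares of all genes, with a median log2 fold change of 0.28, 0.25 and 0.45. Vcan, which encodes versican, had 1.75 ± 0.688 TPM in the control rats and 5.53 ± 0.837 TPM in the treated rats at Year 2, a log2 fold change of 1.89 (FDR 0.000158). Bcan, which encodes the proteoglycan brevican, fell by 2.07 (FDR 0.00396) on the log2 scale. Thbs2, a thrombospondin of the matrix, rose from 2.07 ± 0.655 to 28.9 ± 3.64 TPM at Year 2, a log2 fold change of 4.03 (FDR 1.37e-06). The levels of substrate genes are RNA levels, and cleavage was not measured.

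Stretches before the start of transcription are shown for the called members whose symbol has an entry, since they moved in opposite directions. RefSeq (GRCr8) gave a window for 30 of the 48 members and for 5 of the 8 called members, taken at the most upstream annotated start, and the 250 bases before it follow, written on the strand of the gene, 5′ to 3′, with motif matches in capitals. Adamts4, Adamts18, Adamts2 and Adam12 were called higher and Adamts17 lower.
Adamts4 (chr13:86202761-86203010, plus strand): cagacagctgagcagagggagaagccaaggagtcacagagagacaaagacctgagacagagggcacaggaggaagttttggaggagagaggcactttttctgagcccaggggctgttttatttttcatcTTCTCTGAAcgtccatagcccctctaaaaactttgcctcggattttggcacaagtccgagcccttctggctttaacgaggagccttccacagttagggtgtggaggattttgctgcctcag
Adamts18 (chr19:58748940-58749189, minus strand): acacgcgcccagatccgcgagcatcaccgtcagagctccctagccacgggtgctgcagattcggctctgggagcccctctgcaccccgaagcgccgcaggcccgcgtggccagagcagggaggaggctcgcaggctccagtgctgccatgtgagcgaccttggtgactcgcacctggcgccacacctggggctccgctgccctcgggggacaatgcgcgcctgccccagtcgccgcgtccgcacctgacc
Adamts2 (chr10:35421780-35422029, plus strand): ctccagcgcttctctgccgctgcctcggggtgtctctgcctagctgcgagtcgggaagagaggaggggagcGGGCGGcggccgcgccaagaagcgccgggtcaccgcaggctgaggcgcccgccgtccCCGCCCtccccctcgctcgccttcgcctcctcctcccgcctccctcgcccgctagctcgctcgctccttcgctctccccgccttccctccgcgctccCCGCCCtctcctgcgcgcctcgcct
Adam12 (chr1:198443681-198443930, minus strand): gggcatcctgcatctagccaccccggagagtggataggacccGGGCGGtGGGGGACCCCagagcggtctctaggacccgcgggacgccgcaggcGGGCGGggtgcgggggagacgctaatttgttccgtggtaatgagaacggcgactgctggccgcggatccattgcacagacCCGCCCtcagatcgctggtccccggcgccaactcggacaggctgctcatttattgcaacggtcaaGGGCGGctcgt
Adamts17 (chr1:129855812-129856061, plus strand): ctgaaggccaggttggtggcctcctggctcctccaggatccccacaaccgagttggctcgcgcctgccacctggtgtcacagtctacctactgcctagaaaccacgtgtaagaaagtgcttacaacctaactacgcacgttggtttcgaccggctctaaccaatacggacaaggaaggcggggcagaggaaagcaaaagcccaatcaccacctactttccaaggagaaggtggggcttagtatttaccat

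Searched on both strands were AP-1 (TGANTCA), the cAMP response element (TGACGTCA), the GC box (GGGCGG), the TATA box (TATAAA), STAT (TTCNNNGAA), NF-kappaB and CArG. In capitals are a STAT match in Adamts4, 121 bases before the start, 3 GC boxes in Adamts2, and 4 GC boxes and an NF-kappaB match in Adam12, and no match overlapped another. The windows of Adamts18 and Adamts17 held none of these. GC boxes were in 17 of the 30 member windows (56.7%) and in 32.4% of 27457 windows of all genes, at a median GC content of 66.0% and 52.0%. STAT matches were in 2 of 30 and in 7.5% of all windows, and NF-kappaB matches in 4 of 30 and in 4.25%.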

How the data were processed

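The authors mapped the reads of the 18 lung libraries with CLC Genomics Workbench and deposited, per gene and rat, the count of reads as whole numbers without normalization, the TPM, the RPKM and a TMM-adjusted CPM signal. The submitters' processing notes name Rnor_6.0 (rn6), and the coordinates of genes are those of the files. The counts and the TPM deposited by the authors were used. The deposited RPKM, the deposited CPM signal and the authors' own comparison columns (fold changes and p-values) were not used.

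Tests on the counts used edgeR 4.0.16 in R 4.3.3 (filterByExpr with at least 10 reads and 15 in total, TMM factors, quasi-likelihood test with Benjamini-Hochberg adjustment over all genes) on the 6 rats of each year, and in one model of 18 rats for interactions and time. Errors of log2 fold changes are standard errors. A fit on simulated counts with known changes was checked first. Alternatives were DESeq2 1.42.0, library size scaling, other filters, limma 3.58.1 on log2 TPM with a pseudocount of 1 or 0.1, one model of 18 rats, the replicate block, the FDR alone and leaving out each rat. The members and gene lists were chosen with earlier results of these data known. Described with values in every rat are members called in at least 1 year or with an interaction, the 5 with the highest mean TPM and the highest of each subgroup; of the lists, the 12 called genes with the largest change and the Timp genes. Replicate numbers in the labels did not pair rats: deviations of same-numbered rats from their group means correlated at -0.147 to 0.107 across genes over 9 pairs.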

Additional observations from a re-analysis of the deposited data

Results flagged for a closer look

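The treatment effect on Adamts2 differed between years by a test of the difference itself. In the model of 18 rats by edgeR, the log2 effect at Year 2 exceeded that at Year 0.5 by 0.66 (FDR 0.0209) and that at Year 1 by 0.73 (FDR 0.0277). Over fits that each left out 1 rat, the differences were 0.57 to 0.72 and 0.63 to 0.80, and 5 of 18 and 6 of 18 fits did not pass the FDR threshold. Those were, for Year 2 against Year 0.5, the fits without control rat 3 or treated rat 1 or 3 of Year 0.5 or control rat 1 or 2 of Year 2 (0.57 to 0.65), and, for Year 2 against Year 1, those without control rat 2 or 3 or treated rat 3 of Year 1 or control rat 1 or 2 or treated rat 2 of Year 2 (0.63 to 0.80). The control rats were lower at Year 2 than at Year 0.5 for this gene, at 21.1 against 27.7 TPM on average. In the same edgeR model, its log2 change from Year 0.5 to Year 2 was 0.28 (FDR 0.0529) in treated rats and -0.39 (FDR 0.0222) in control rats. From Year 1 to Year 2 the change was 0.52 (FDR 0.00326) in treated rats and -0.21 (FDR 0.152) in control rats. The share of the control rats in the difference was not tested further.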

How the results depend on the processing

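Of 73 single results of members, 49 kept their direction and their side of the threshold in every alternative other than leaving out a rat, 44 when each rat was left out in turn and 35 in both, and none turned its direction. Members called higher at Years 0.5, 1 and 2 (2, 1 and 5) became 1, 0 and 4 with at least 10 counts in every rat, 0, 0 and 1 with limma on log2(TPM + 1), and 6, 6 and 11 by the FDR alone. At Year 2 they became 3 with library size scaling and 2 with limma on log2(TPM + 0.1). Members called lower (0, 2 and 2) became 8, 10 and 11 by the FDR alone, at Year 1 they became 1 with at least 10 counts and 0 with limma on log2(TPM + 1), and at Year 2 they became 4 with library size scaling, 5 with limma on log2(TPM + 0.1) and 4 in one model of all 18 rats. With the replicate block, 2 members were called higher at Year 1, and the Adamts12 and Adamts14 calls by FDR at Year 2 were lost; it changed no other call of a member. By DESeq2, 2 members had an interaction between Year 2 and Year 0.5, 2 between Year 2 and Year 1, and 1 was called between Year 2 and Year 1 in the control rats, as was 1 with at least 10 counts, against 0. The median log2 fold change of ADAM genes at Years 0.5, 1 and 2 became 0.039, -0.14 and 0.14 with library size scaling, -0.0005, -0.18 and 0.10 with limma on log2(TPM + 1), -0.0005, -0.24 and 0.11 with limma on log2(TPM + 0.1), and 0.46 at Year 2 with at least 10 counts. That of ADAMTS genes became -0.085 at Year 0.5 and -0.52 at Year 2 with library size scaling, -0.17 and -0.51 with at least 10 counts, -0.12 and -0.42 with limma on log2(TPM + 1), and -0.12 and -0.55 with limma on log2(TPM + 0.1), under which that of ADAMTSL genes was -0.41 and -0.23. The cause was not tested, and limma on TPM and library size scaling use no TMM factors.

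With each rat left out in turn, members called higher ranged from 2 to 4, 1 to 2 and 4 to 5, members called lower from 0 to 1, 0 to 4 and 2 to 5, members called over time in the treated rats from 2 to 3 (Year 2 against Year 0.5) and 0 to 1 (Year 2 against Year 1), in the control rats from 0 to 1 and 0 to 2, and members with an interaction from 0 to 1 and 0 to 3. The medians ranged from 0.046 to 0.17, -0.02 to 0.085 and 0.25 to 0.40 for ADAM, -0.080 to -0.0042, -0.53 to -0.23 and -0.40 to -0.29 for ADAMTS, and -0.31 to -0.21, -0.66 to -0.36 and -0.14 to 0.06 for ADAMTSL genes. Called genes over all features at Year 2 were 49.9% higher with TMM factors and 37.5% with library size scaling (66.7% and 54.2% at Year 0.5, 60.0% and 45.2% at Year 1). The 3 rats per group limit the precision, and members under 10 counts could not be tested.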

Other observations

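Adam22, a member without a working protease site that did not pass the filter by year, had 4, 11 and 23 counts in the control rats and 1, 0 and 4 counts in treated rats at Year 1, and 3, 11 and 11 counts against 2, 2 and 2 at Year 2. Without the filter, the log2 fold change by edgeR was -2.71 (FDR 0.0386) at Year 1, -1.99 (FDR 0.0556) at Year 2 and -0.59 (FDR 0.526) at Year 0.5. Adam4 had 4, 16 and 10 counts in the control rats and 2, 1 and 5 counts in the treated rats at Year 2, with a log2 fold change of -1.84 (FDR 0.0802). Adam18 had 5 counts in 1 treated rat at Year 0.5 and at most 2 counts in each of the other rats.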
